A study of Mus musculus with 6 samples.

Results

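Chemokines are small secreted proteins that guide the movement of leukocytes and other cells, and they act through receptors of the G protein-coupled family on the cells that move. The members described here were the non-control probes whose gene name on the array was Ccl, Cxcl, Ccr, Cxcr or Xcr followed by a digit, or began with Cx3c. This rule took 70 of the 41174 non-control probes, or 54 of 27376 gene names. The rule reads gene names only.

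The arrays measured total RNA of whole spinal cord from male C57BL/6 mice aged 8 weeks. One group was wild-type and the other carried a null state of Dhtkd1, the gene of a mitochondrial enzyme of lysine and tryptophan breakdown. Each group had 3 samples, one array each, and no treatment was listed for either group. The labels number the samples of a group as replicates and do not say that each came from a separate animal, so the tests measure the spread between these samples, which may be technical. The way in which the null allele was made is not given in the labels. The comparison asks which chemokine system transcripts differed in level in the spinal cord lacking Dhtkd1.

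In the nervous system the family is best known from a few pairs. Cx3cl1 is made largely by neurons and its receptor Cx3cr1 marks microglia, the resident macrophages of the tissue. Cxcl12 acts through Cxcr4, while the receptor named Cxcr7 on the array (now Ackr3) takes up the same ligand and removes it. Many CC ligands and the ligands of Cxcr2 are induced in inflammation and draw monocytes or neutrophils, whereas Ccl19 and Ccl21 act on Ccr7 and are known from lymphoid stroma.

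Each value given here is a log2 processed signal of a probe minus the 75th percentile of its array. Differences are given as null minus wild-type on this log2 scale. A probe entered the test where 3 or more of the 6 arrays read it well above background, and limma's p-values were adjusted over all 33191 such probes by the Benjamini-Hochberg method. Levels of different probes are not compared, since probes differ in their response.

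The Dhtkd1 probes were lower in every null array. The first read -2.91, -3.02 and -3.10 in the wild-type arrays and -4.05, -4.05 and -4.16 in the null arrays, a difference of -1.08 (SE 0.08, limma adjusted p = 0.0922), and the second differed by -1.07 (SE 0.28, limma adjusted p = 0.514). Both probes were well above background on all 6 arrays, and the labels do not say which part of the gene was removed. Over the 6 arrays the upper quartile of processed signal went from 950.4 to 1055, and each array read 78.4% or more, at most 82.0%, of its spots well above background. Wild-type 2 and all 3 null arrays were on one slide, called slide 1, and wild-type 1 and wild-type 3 were on the other, so a difference within slide 1 sets 1 wild-type array against 3 null arrays. All 9 neuron markers, 8 astrocyte markers and 8 oligodendrocyte markers listed for the tissue had a probe well above background on all 6 arrays. Markers of tissue around the cord were read too. All 10 skeletal muscle and all 10 tested adipocyte probes were higher in the null arrays, with medians of 0.66 and 0.79. None of them had an unadjusted p under 0.05, beside 5.51% of all tested probes. All 6 tested Schwann cell probes were lower, with a median of -0.66 and 1 at that p (16.7%, beside 2.68% of all). Within slide 1 the signs of these medians turned, to -0.69 for muscle, -0.73 for adipocytes and 0.81 for Schwann cells. Their part in the chemokine values was not tested. Arrays that stood apart for the chemokine genes were wild-type 3 and null 1, described with the ligands below.

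Of the 70 member probes, 49 probes of 38 genes were tested, 47 were well above background on all 6 arrays, 9 on some and 14 on none. The 14 were the only probes for Ccl1, Ccl20 and Ccl22, for Cxcl2 and Cxcl3, for Ccr1 and Ccr7 and for Cxcr1 and Cxcr5, both probes for Ccr4, and one probe each for Cxcl15, Ccr3 and Xcr1. Other probes of Ccr3 and Xcr1 were well above background on all 6 arrays, and the other Cxcl15 probe on 1. A probe not well above background in whole cord does not show that no cell held the transcript. The 7 probes seen on 1 or 2 arrays only were those of Cxcl9, Cxcl13, Cxcl17, Ccr1l1 and Ccr8, the second probe of Cxcl15 and the second probe of Ccr2. No member probe was well above background on every array of one group and on none of the other.

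No chemokine or receptor probe passed an adjusted p of 0.05 in limma, and none did among all probes tested (0.00%). At an unadjusted p under 0.05, no member was higher in the null arrays, where 5.51% of all tested probes were. In the other direction 2 members of 49 (4.08%) were lower, beside 2.68% of all tested probes. Both were receptors, Cxcr4 and Cxcr6. That count was 0 without null 2, beside 567 of all tested probes. It was 1 without any one of the wild-type arrays, beside 732 to 1316 of all. The split over all probes depended on the scaling, with 1829 higher and 890 lower here, 1263 and 1359 under quantile normalization and 1226 and 1239 under median centring. Under both of those scalings 0 members were higher and 3 lower. The null arrays lay wholly above the wild-type arrays for 1 member, Cx3cl1, beside 9.49% of all tested probes, and wholly below for 1, Cxcr6, beside 4.84%, so that 4.08% of members were separate in either direction beside 14.3% of all. Of all members, 21 of the 49 members had a difference above 0, or 42.9% beside 58.1% of all, and the median difference was -0.13 for the members and 0.033 for all probes. Within slide 1 these medians were 0.044 and 0.010.

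**Figure D1:**
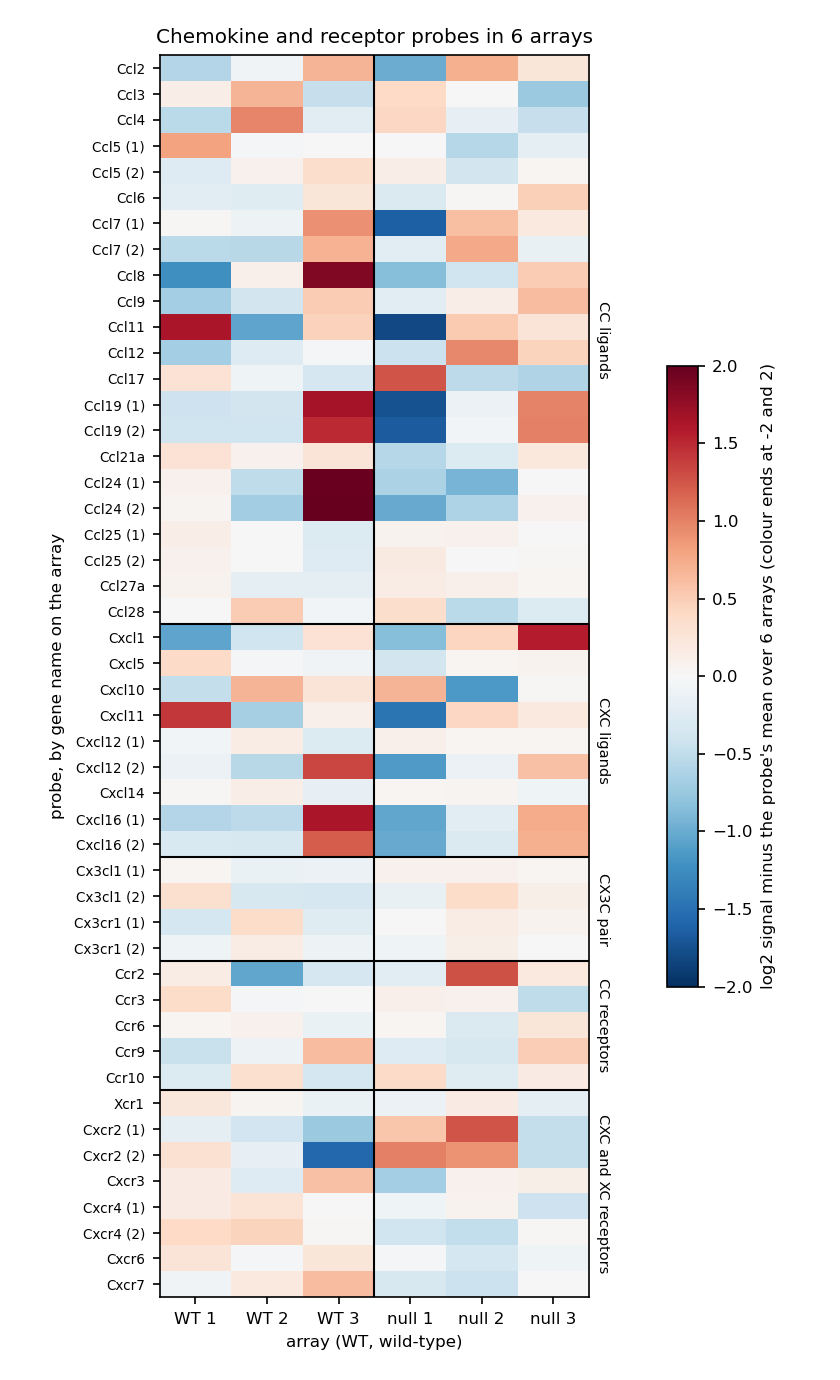
Each row is a tested probe and each column an array, and the colour is the log2 signal minus the probe's mean over the 6 arrays. The rows are grouped by role and a number in brackets tells apart the probes of one gene. Wild-type 3 is dark red and null 1 blue for both probes of Ccl19 and Cxcl16 and for the second probe of Cxcl12 and of Ccl24, while the rows of Cxcl14, Ccl25 and the second Cx3cr1 probe are pale across all arrays.

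Among the ligands, 22 of 25 CC ligand probes were tested, with a median difference of -0.18 (8 higher, 14 lower). The CXC ligands had 9 of 16 probes tested and a median of -0.30 (3 higher, 6 lower). No ligand of either class reached an unadjusted p under 0.05. The CC receptors had 6 of 14 probes tested and a median of 0.06, and the CXC and XC receptors 8 of 11 and -0.30, of which 2 were lower at an unadjusted p under 0.05. The 4 probes of Cx3cl1 and Cx3cr1 were all tested and all had differences above 0, with a median of 0.15. Within slide 1 the medians were 0.068 for the CC ligands, 0.13 for the CXC ligands, -0.089 for the CC receptors, -0.11 for the CXC and XC receptors and 0.041 for the CX3C pair. These are counts of probes, and 11 genes contributed a pair of tested probes, of which 9 agreed in direction.

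Cxcr4, the receptor through which Cxcl12 holds and guides migrating cells, had the smallest p of the family. Its probes begin at bases 871 and 1451 of the transcript listed for both, and their opening 30 bases, all in lower case, are these.
Cxcr4 probe 1: catattatgtggggatcagcatcgactcct
Cxcr4 probe 2: aggaagaaactgaacattccagaatgtgtg
Probe 2 (mm9 chr1:130485079-130485138, minus strand) read -3.57, -3.53 and -3.95 in the wild-type arrays and -4.38, -4.46 and -3.95 in the null arrays. Null 1 and null 2 lay below all wild-type arrays, and null 3 met wild-type 3 at the edge between the groups. The group means were -3.69 ± 0.23 and -4.26 ± 0.28 (SD, n = 3 each), a difference of -0.58 (SE 0.18), or 1.49-fold (limma unadjusted p = 0.0198, adjusted p = 0.564). Probe 1 read -5.16, -5.04 and -5.34 against -5.41, -5.25 and -5.73, with overlap of 1 wild-type and 1 null value, and differed by -0.29 (SE 0.15, limma adjusted p = 0.654). Both probes were lower within slide 1 as well, with differences of -0.42 and -0.73, and probe 1 differed by -0.15 without null 3. The adjusted p of the second probe ranged from 0.409 to 0.927 over the alternatives tried.

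Cxcr7 had a difference of the same sign. Its probe (mm9 chr1:92111803-92111862) read -0.45, -0.19 and 0.24 in the wild-type arrays and -0.71, -0.81 and -0.37 in the null arrays. The wild-type 1 array lay below null 3, so the groups overlapped by that pair. The difference was -0.49 (SE 0.21, limma unadjusted p = 0.0558, adjusted p = 0.612), -0.44 within slide 1 and -0.31 without wild-type 3. Because whole tissue was measured, fewer cells carrying a receptor and less RNA of it per cell cannot be told apart, here and in the results that follow.

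Cxcl12, the ligand both receptors share, was read by 2 probes that stand on different RefSeq transcripts of the gene, the first near base 5510 of NM_001012477 and the second near base 1264 of NM_021704.
Cxcl12 probe 1: aggagaaggcagcttcctatatgcagcgtg
Cxcl12 probe 2: gaattaatcataaacggaagtttaaatgag
Probe 1 read 2.57, 2.77 and 2.34 against 2.71, 2.66 and 2.65, which puts the null arrays inside the wild-type range, with a difference of 0.12 (SE 0.12, limma adjusted p = 0.796). Probe 2 read -2.15, -2.58 and -0.70 against -3.16, -2.15 and -1.44, a difference of -0.44 (SE 0.63, limma adjusted p = 0.848). The probes thus differed in direction, and in spread by far, with a range of 2.46 over the 6 arrays for probe 2. Within slide 1 each turned its sign, to -0.095 and 0.34. No direction can be given for Cxcl12 from these arrays.

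The promoters of the ligand and its receptors are shown because the differences of Cxcr4 and Cxcr7 ran the same way. They are the 250 bases before the RefSeq start in GRCm38.p6, with matches in capitals to the NF-kB motif (GGG and CC with any 5 bases between) and to TATAAA (the TATA box). All motifs were sought on both strands. The Cxcl12 match is on the opposite strand, so it reads as GG and CCC with 5 bases between.
Cxcr4 (chr1:128592300-128592549, minus strand): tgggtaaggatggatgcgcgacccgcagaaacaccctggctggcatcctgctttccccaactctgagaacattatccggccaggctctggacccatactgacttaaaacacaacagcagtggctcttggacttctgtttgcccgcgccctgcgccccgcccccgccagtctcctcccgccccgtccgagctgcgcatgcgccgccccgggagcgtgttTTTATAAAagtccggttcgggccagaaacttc
Ackr3, the gene of Cxcr7 (chr1:90203730-90203979, plus strand): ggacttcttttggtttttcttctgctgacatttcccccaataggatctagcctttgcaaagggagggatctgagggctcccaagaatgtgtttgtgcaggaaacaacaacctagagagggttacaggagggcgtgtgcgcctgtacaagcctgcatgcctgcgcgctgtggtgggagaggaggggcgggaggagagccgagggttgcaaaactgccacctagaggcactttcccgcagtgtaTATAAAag
Cxcl12 (chr6:117168285-117168534, plus strand): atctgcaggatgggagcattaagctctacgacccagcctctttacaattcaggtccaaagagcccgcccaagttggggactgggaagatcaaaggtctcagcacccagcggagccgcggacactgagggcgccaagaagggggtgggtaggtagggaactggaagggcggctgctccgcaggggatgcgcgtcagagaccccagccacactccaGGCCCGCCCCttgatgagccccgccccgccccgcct
Both receptor windows held TATAAA near their ends, where a pair of overlapping matches on opposite strands began at -32 and -30 from the Cxcr4 start and one began at -8 from the Ackr3 start. The Cxcl12 window held the NF-kB motif at -36 and no TATAAA. RefSeq promoters were matched for 40 of the 54 genes, 44 promoters in all. TATAAA on either strand was in 29.5% of them and in 12.4% of all 32851 promoters, and the NF-kB motif was in 56.8% and 45.8%. The hypoxia motif ACGTG was in 11.4% against 16.6%, and the interferon response motif (GAAA and GAAA with any 2 bases between) in 6.82% against 2.98%. These matches describe letters only.

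Cxcr6, the receptor of Cxcl16 on T cells, was the other receptor with an unadjusted p under 0.05. Its probe (mm9 chr9:123720605-123720664) read -4.65, -4.94 and -4.66 in the wild-type arrays and -4.95, -5.25 and -4.99 in the null arrays. The groups did not overlap, though wild-type 2 and null 1 were almost level. The difference was -0.31 (SE 0.13, limma unadjusted p = 0.0487, adjusted p = 0.607) and only -0.13 within slide 1. The gene lies over Fyco1 in the reference, so signal from an overlapping transcript was not told apart. Its ligand Cxcl16 had 2 probes with differences of -0.35 (SE 0.74) and -0.39 (SE 0.59), which became 0.35 and 0.13 within slide 1.

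Cxcr2, the receptor for neutrophil-drawing ligands, differed the other way, with 2 probes that ranked among the 12 smallest p of the family. The first read -5.31, -5.49 and -5.85 in the wild-type arrays and -4.55, -3.86 and -5.59 in the null arrays. Null 1 and null 2 were above every wild-type array and null 3 was inside their range, and the difference was 0.89 (SE 0.44, limma adjusted p = 0.638). The second read -4.41, -4.88 and -6.28 against -3.70, -3.81 and -5.18, with null 3 again low, and differed by 0.96 (SE 0.61, limma adjusted p = 0.695). Single arrays moved both values. The first probe was 1.35 without null 3 and 0.48 without null 2, and the second was 1.43 without null 3 and 0.41 without wild-type 3.

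Markers of blood and marrow leukocytes were high in the same arrays. The mean of 15 probes from this list, each centred on its own mean, was 0.22, -0.25 and -0.84 in the wild-type arrays and 0.36, 1.03 and -0.51 in the null arrays. Of those 15 probes 11 had a positive difference and 4 a negative one, their median was 0.94, and 1 was lower at an unadjusted p under 0.05, while among the T cell markers Cd3d and one probe of Cd3e were well above background on all 6 arrays and Cd2, Cd3g and the other Cd3e probe on none. Within slide 1 the median was 0.95. S100a8, a neutrophil protein, read 3.32, 2.51 and 2.14 against 4.38, 4.84 and 2.83, with overlap, since null 3 lay below wild-type 1. The differences of the 15 probes ran from -2.02 to 2.32. The groups did not overlap for 1 of them, where the null arrays were lower, beside 4.84% of all tested probes. The share lower at an unadjusted p under 0.05 was 6.67%, beside 2.68% of all. The order of the arrays in the list mean was close to that of Cxcr2, and the part of leukocytes in the Cxcr2 values was not tested.

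Ccr2, the receptor that brings monocytes into tissue, read -4.42, -5.60 and -4.90 in the wild-type arrays and -4.79, -3.29 and -4.37 in the null arrays by its tested probe. Null 2 was the highest and the groups overlapped, with a difference of 0.82 (SE 0.47, limma adjusted p = 0.670) that was 1.45 within slide 1, 0.51 without wild-type 2 and 0.40 without null 2. Its ligands differed from one another. Ccl12 read -2.88, -2.45 and -2.24 against -2.63, -1.24 and -1.75, a difference of 0.65 (SE 0.37, limma adjusted p = 0.670) that was 0.34 without null 2 and 1.03 without null 1, whereas Ccl2 differed by -0.020 (SE 0.52) and the probes of Ccl7 by -0.56 and 0.27. Ccl5, a T cell and macrophage ligand, was lower by both probes, -0.51 (SE 0.27) and -0.13 (SE 0.20), and neither passed.

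Cx3cl1, the neuronal ligand, had narrow spread in its first probe (mm9 chr8:97306185-97306244).
Cx3cl1 probe 1: tcccagagcagaatgtgggccgtaacaatc
Cx3cl1 probe 2: gtagacattcctagggacataggaaagatg
Probe 1 read 4.44, 4.26 and 4.28 in the wild-type arrays and 4.48, 4.49 and 4.44 in the null arrays, so the null arrays were all above, by a margin that vanished at 2 decimals between wild-type 1 and null 3. The difference was 0.15 (SE 0.08, limma adjusted p = 0.663), or 1.11-fold, and 0.21 within slide 1. Probe 2 differed by 0.23 (SE 0.22) with overlap. Under the normexp background correction the first probe reached an unadjusted p of 0.036, with a limma adjusted p of 0.573. The window before the Cx3cl1 start (chr8:94771930-94772179, plus strand of GRCm38.p6) ended in TATAAA, in capitals here.
Cx3cl1 promoter: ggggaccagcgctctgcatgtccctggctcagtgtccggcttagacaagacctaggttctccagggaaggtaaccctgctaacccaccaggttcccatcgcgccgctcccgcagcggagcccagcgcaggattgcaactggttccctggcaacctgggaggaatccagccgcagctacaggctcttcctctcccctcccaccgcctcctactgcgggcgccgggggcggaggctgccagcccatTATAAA
Cx3cr1, its receptor, read 0.03, 0.25 and 0.00 against 0.03, 0.22 and 0.11 by one probe, a difference of 0.023 (SE 0.10), and differed by 0.16 (SE 0.20) by the other. Both became negative within slide 1, at -0.13 and -0.28. Beside it, 16 of 20 probes of the microglia and macrophage markers were higher in the null arrays (80%, beside 58.1% of all tested probes). Of these, 6 had an unadjusted p under 0.05 (30% of the list, beside 5.51% of all). The median of the list was 0.20, and 0.097 within slide 1. The array means of the list ran from -0.47 to 0.33 in the wild-type arrays and from -0.19 to 0.30 in the null arrays.

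**Figure D2:**
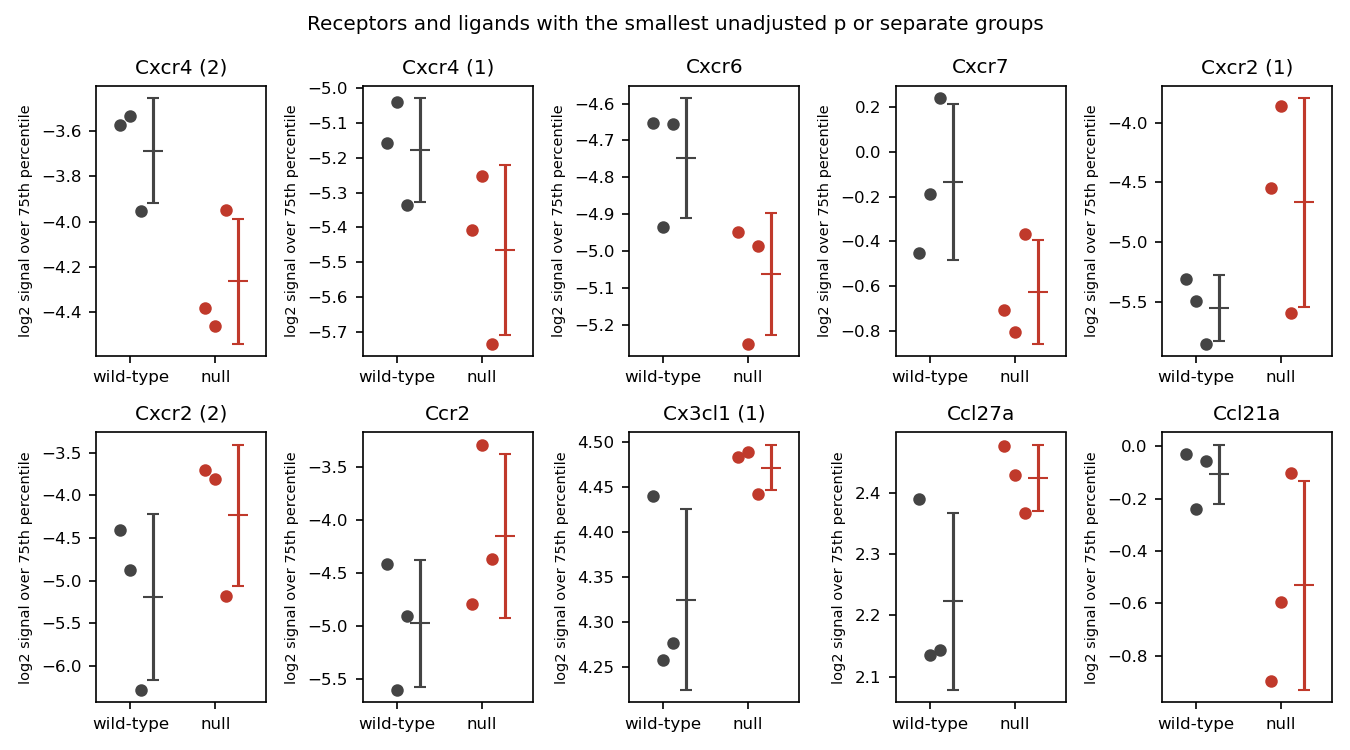
Points are single arrays, with log2 signal relative to the array's 75th percentile on each vertical axis, and the bars beside them are the mean and SD of 3 arrays. The axes differ between panels and do not start at 0. Cxcr4, Cxcr6 and Cxcr7 lie lower in the null arrays and Cx3cl1 (1) and Ccl27a higher, while null 3 stands apart from the other null arrays for Cxcr4 (2), Cxcr2 and Ccl21a.

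Ccl21a and Ccl27a lie with Ccl19 on chromosome 4 and gave values in opposite directions. Ccl21a, a stromal and lymphatic ligand of Ccr7, read -0.03, -0.24 and -0.06 against -0.90, -0.59 and -0.10, a difference of -0.42 (SE 0.21, limma adjusted p = 0.634). Null 3 stayed among the wild-type values, and the difference was -0.64 without null 3 and -0.24 without null 1. Ccl27a read 2.39, 2.13 and 2.14 against 2.48, 2.43 and 2.37, with wild-type 1 between the null arrays, a difference of 0.20 (SE 0.10, limma adjusted p = 0.633). The listed transcripts of both probes also name near-identical gene copies, and the Ccl27a gene lies over Il11ra1 in the reference, so each value may sum several loci. By region, the CC ligand cluster on chromosome 11 (mm9 chr11:81850650-83478111) had 11 of 12 probes tested, 4 higher and 7 lower, with a median of -0.13. The CXC ligand cluster on chromosome 5 (mm9 chr5:91190205-96389920) had 4 of 10 tested and a median of -0.24.

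**Figure D3:**
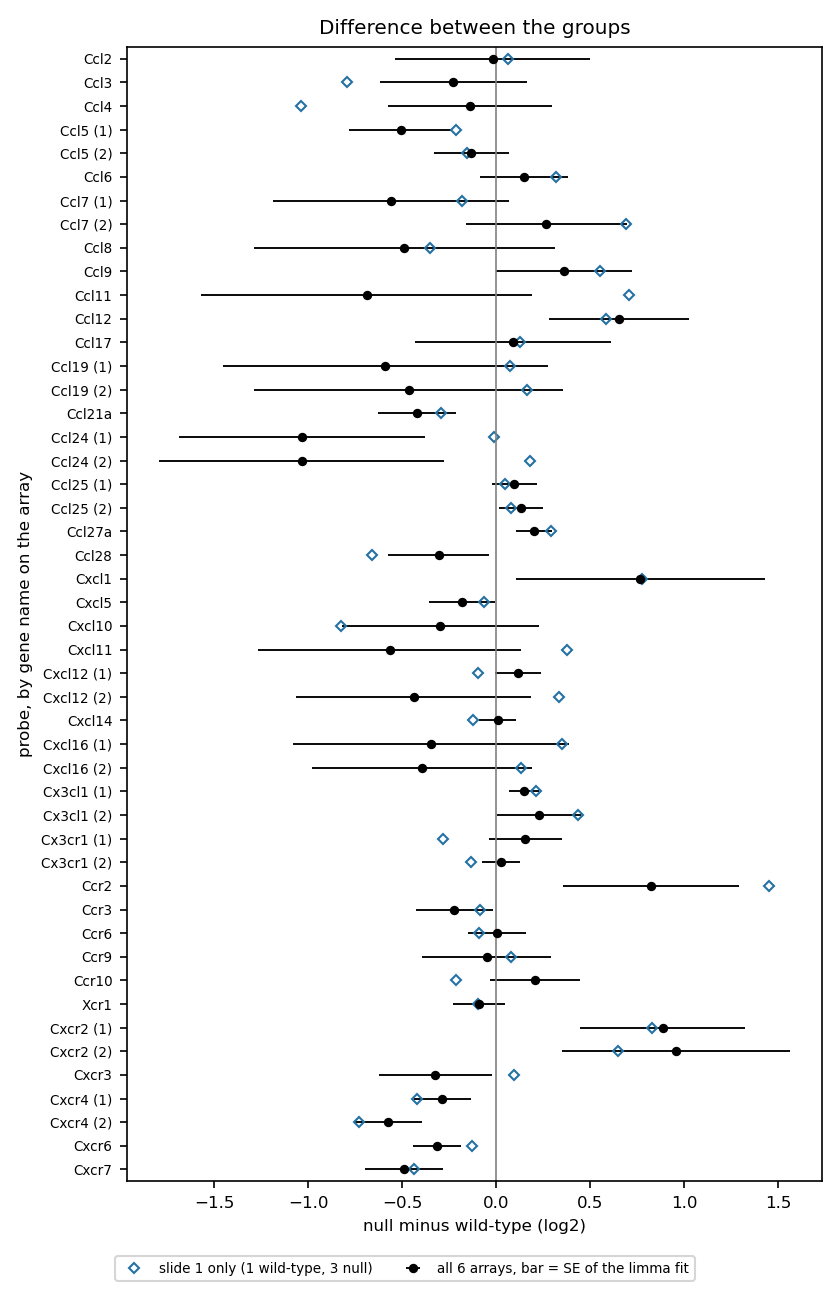
Filled points are the null minus wild-type differences (log2) of tested probes with their SE from the limma fit, and open diamonds are the same differences within slide 1, which holds 1 wild-type and 3 null arrays. The points lie on both sides of 0. The diamonds of Ccl11, Ccl24, Cxcl11, Cxcl16, Cxcl12 (2) and Ccr2 lie at higher values than their points, and those of Ccl3 and Ccl4 at lower values. Those of Cxcr4 and Cxcr7 stay below 0.

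For ligands, receptors and all tested probes alike, the median within-group SD was larger than the median size of the group difference. The SD is of single arrays and the difference is of means of 3, which vary less, so this order is no result about the groups. The median within-group SD was 0.50 for the tested members and 0.154 for all tested probes. With the tested probes divided by mean signal into 3 classes of equal size, members of the dim class had a median SD of 0.576 beside 0.257 for all probes there, those of the middle class 0.434 beside 0.145, and those of the bright class 0.134 beside 0.0995. In these classes 25 of 31, 9 of 10 and 7 of 8 members exceeded the median of all probes. The ligand probes had a median SD of 0.63, beside a median size of the group difference of 0.31. For the receptor probes these were 0.29 and 0.26, and for all tested probes 0.154 and 0.117. The highest was that of Ccl11, the eosinophil ligand eotaxin, with an SD of 1.31.

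**Figure D4:**
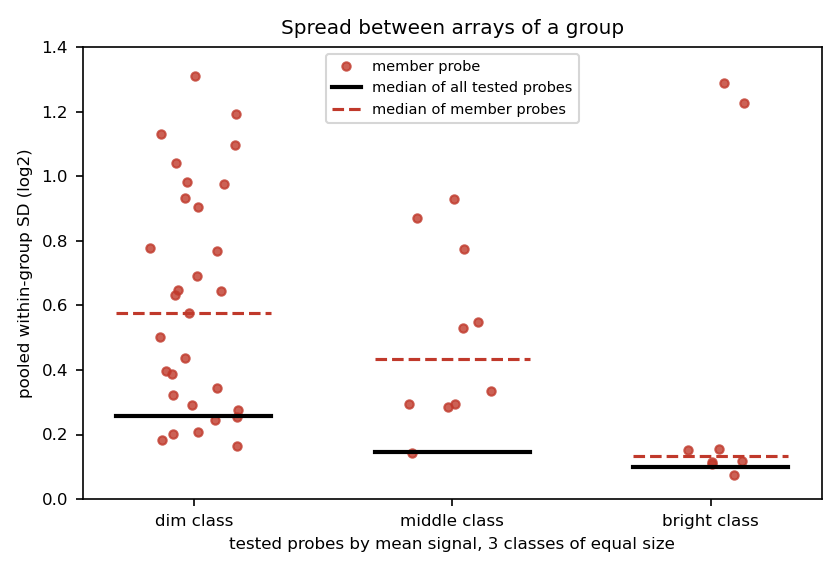
Each point is the pooled within-group SD (log2) of a tested member probe, set out by the class of mean signal that the probe falls in, beside the medians of all tested probes (black) and of members (dashed). Most members lie above the black line in each class, and the pair near 1.2 and 1.3 in the bright class are the Ccl19 probes.

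Wild-type 3 and null 1 held many of the extremes. The genes of this paragraph other than Cxcl16 and Cxcl12 were chosen after their values were seen. Ccl19 read 0.36, 0.40 and 2.44 in the wild-type arrays and -0.98, 0.65 and 1.76 in the null arrays by its first probe, and 0.07, 0.08 and 1.98 against -1.18, 0.43 and 1.49 by its second. Wild-type 3 was the highest and null 1 the lowest, with null 3 second. Ccl24, a ligand of Ccr3, read -4.31, -5.07 and -2.17 against -5.38, -4.99 and -4.29 by its second probe, and its differences of -1.03 and -1.04, past 1 in size like 1.34% of all tested probes, became -0.011 and 0.18 within slide 1. Cxcl16 read -2.27, -2.30 and -0.76 against -2.98, -2.26 and -1.27 by its second probe. Wild-type 3 was the highest array and null 1 the lowest for 8 members (16.3%), which is the case for 3.30% of all tested probes. Wild-type 3 was the lowest array for 35.7% of all tested probes and for 18.4% of members.

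Markers of meningeal fibroblasts had the same extremes. The mean of 18 probes for 10 such genes was 0.25, -0.40 and 1.03 in the wild-type arrays and -1.34, -0.09 and 0.55 in the null arrays, with 15 probes lower and 3 higher and a median of -0.58. All 10 genes had tested probes. At an unadjusted p under 0.05, 1 probe was higher (5.56%, beside 5.51% of all tested probes) and none lower. The groups were separate for 1 probe, with the null arrays above, beside 9.49% of all tested probes. Within slide 1 that median was 0.07. For example Col1a1 read 1.25, 0.87 and 2.75 against -0.81, 0.67 and 1.33 by one probe. The part of meningeal tissue in the chemokine values was not tested. The median of the tested members was 0.0051 without wild-type 3 alone and 0.045 without null 1 alone. Without both, an alternative chosen after seeing the data, it was 0.051, 4 members were higher and 3 lower at an unadjusted p under 0.05, and no member passed an adjusted p of 0.05 in limma.

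**Figure D5:**
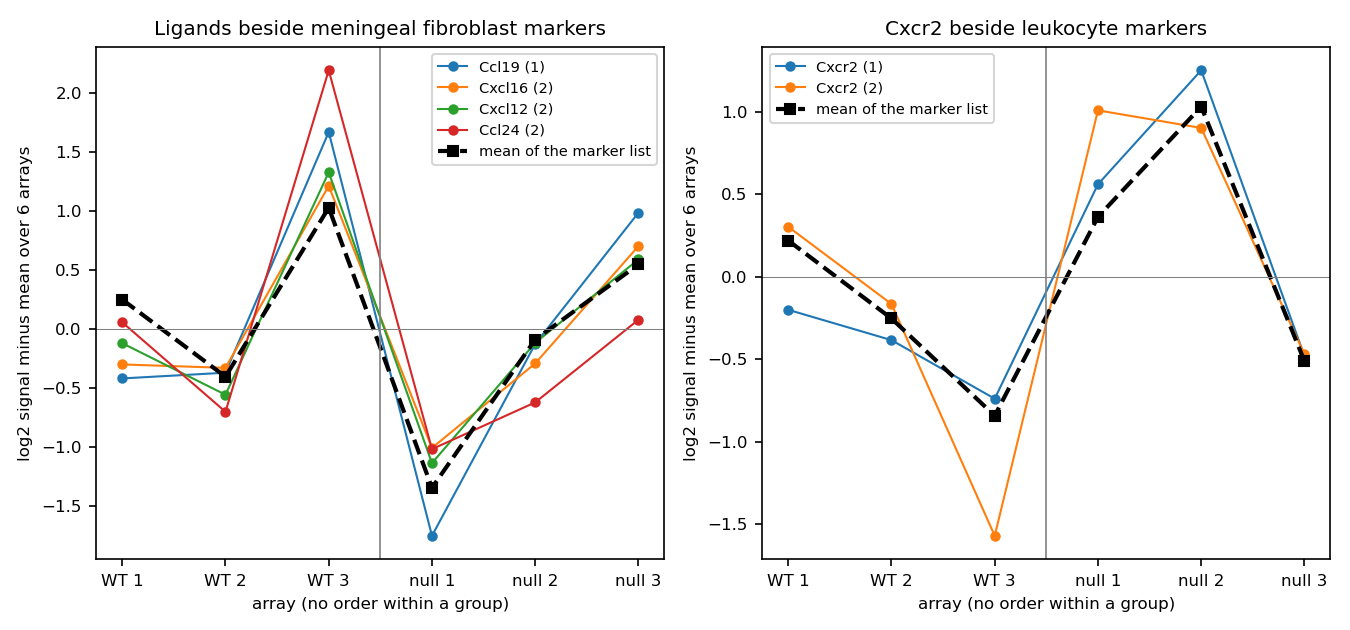
The vertical axes give log2 signal minus the mean over 6 arrays, on the left for 4 ligand probes with the meningeal fibroblast marker mean (dashed) and on the right for both Cxcr2 probes with the leukocyte marker mean. On the left every line peaks at wild-type 3 and is lowest at null 1, and on the right wild-type 3 is lowest and null 1 and null 2 are highest.

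The Ccl19 promoter is shown because these probes had the widest range among the bright members. It held the NF-kB motif at -250 and the interferon response motif at -208, both in capitals.
Ccl19 (chr4:42756366-42756615, minus strand): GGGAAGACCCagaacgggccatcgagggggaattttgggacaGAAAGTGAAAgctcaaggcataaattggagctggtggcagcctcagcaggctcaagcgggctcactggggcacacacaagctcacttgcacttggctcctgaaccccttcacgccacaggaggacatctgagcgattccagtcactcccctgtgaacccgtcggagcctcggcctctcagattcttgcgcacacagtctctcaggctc

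Among members outside the test, Cxcl13, the ligand that organises B cell follicles, stood out in one array and was named after its values were seen. It read -7.43, -7.57 and -6.20 in the wild-type arrays and -7.78, -7.81 and -2.73 in the null arrays. It was well above background in wild-type 3 and null 3 only. Ccr8 was above background in wild-type 3 alone, at -4.92, and the Cxcl15 probe in wild-type 2 alone, at -5.63. Single arrays of this kind show no difference between the groups.

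Genes of the chemokine system outside the name rule gave 13 tested probes of 9 genes, with a median of 0.036. At an unadjusted p under 0.05, 3 of them were higher (23.1%, beside 5.51% of all tested probes) and 1 lower (7.69%, beside 2.68%). The 3 higher probes were that of Ppbp and both of Darc. Ppbp, a platelet chemokine, read -3.94, -2.52 and -3.39 against -2.36, -1.75 and -1.70, a difference of 1.35 (SE 0.39, limma adjusted p = 0.538). Darc (now Ackr1), a receptor of venule endothelium and red cells that binds many chemokines, read 0.25, 0.77 and 0.25 against 0.82, 1.26 and 1.14, a difference of 0.65 (SE 0.19, limma adjusted p = 0.544). All null arrays were above the wild-type arrays for both of these probes, and within slide 1 the differences were 0.58 and 0.30. Pf4, another platelet chemokine of this list, differed by -0.31 (SE 0.51, limma adjusted p = 0.871) with overlap, and by 0.41 within slide 1. The second Darc probe differed by 0.79 (SE 0.27, limma adjusted p = 0.578) with overlap, since null 1 at 2.18 lay below wild-type 2 at 2.24, and by 0.29 within slide 1. Red blood cell markers were higher by all 10 probes, with a median of 0.63, and 1.05 within slide 1. Of these, 3 had an unadjusted p under 0.05 (30%, beside 5.51% of all tested probes). Endothelial markers had 14 tested probes, 8 higher and 6 lower, with a median of 0.20, and 0.25 within slide 1. At an unadjusted p under 0.05, 3 of them were higher (21.4%, beside 5.51% of all tested probes) and none lower. The part of red cells or endothelium in the Ppbp and Darc values was not tested. Ccrl2, an atypical receptor that presents chemerin, was lower by both probes, with a difference of -0.46 (SE 0.13, limma adjusted p = 0.522) for the one at an unadjusted p under 0.05.

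The signalling genes used by chemokine receptors had 80 tested probes of 39 genes, with a median of 0.11. Of these probes, 61 were higher (76.2%, beside 58.1% of all tested probes). At an unadjusted p under 0.05, 8 were higher and 2 lower, beside 5.51% and 2.68% of all tested probes. The 2 lower ones were those of Rap1a, at -0.39 (SE 0.15, with overlap) and -0.35 (SE 0.13, groups separate). Their limma adjusted p was 0.597 each, and within slide 1 they differed by -0.60 and -0.58. Elmo1, which works with Dock proteins to activate Rac in migrating cells, read -1.98, -1.73 and -1.87 against -1.31, -1.44 and -1.26. The null arrays were all above by this probe, with a difference of 0.52 (SE 0.10, limma adjusted p = 0.358) and 0.39 within slide 1. The other Elmo1 probes overlapped between the groups, with differences of 0.33 (SE 0.24) and 0.044 (SE 0.09), and of -0.015 and -0.0036 within slide 1. Others named by the same rule were Arrb1, a beta-arrestin that uncouples receptors (0.28, and 0.56 by its other probe), and Rac2, the Rac of blood cells (0.81 and 0.71). Of the inducers of inflammatory chemokines, 22 probes of 13 genes were tested. None were higher and 2 lower at an unadjusted p under 0.05 (9.09% lower, beside 2.68% of all tested probes). Among them Relb, an NF-kB subunit, had a difference of -0.25 (SE 0.08), and its groups did not overlap. Of the inducing cytokines, Il1b was well above background on all 6 arrays and differed by -0.41 (SE 0.35), Il6 was so on none, and Tnf, Ifng and Il1a on at most 1. The proteases that cut chemokines gave 8 tested probes, 4 higher and 4 lower, and none with an unadjusted p under 0.05.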

How the data were processed

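Spinal cord RNA was read on one-colour Agilent arrays, 3 wild-type and 3 Dhtkd1 null. Per the file headers, the deposited intensity values come from Feature Extraction 10.7.3.1 (array design 014868, mm9 probe positions), background-subtracted and detrended within each array. The deposited table of log2 values has equal quantiles across arrays; its method is not given in the sources used here, and it served as an alternative (correlation with each array's own log2 signal at least 0.9997). Here log2 processed signal was taken minus the array's 75th percentile over non-control spots, after leaving out outlier spots (58 to 89 an array), and spots of a probe were averaged. Probes well above background on at least 3 arrays were fitted with limma 3.58.1 in R 4.3.3 with no covariate, with Benjamini-Hochberg adjustment. The fit was tested on simulated data. With 3 arrays a group, their number limits precision. The members and lists were chosen with earlier results of these data known.

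Named members were those with an adjusted p under 0.05, those whose groups did not overlap, the 12 of smallest p, those detected in one group only, every probe of these genes, and by role Cx3cl1, Cx3cr1, Cxcl12, Cxcr4, Cxcr7, Cxcl14, Cxcl16, Ccl2 and Ccr2. Some items this rule names are not reported here, nor drawn in the figures, and stay in the counts. From other lists, up to 4 genes with an unadjusted p under 0.05 and separate groups were named. Alternatives changed the scaling, background, filter, slide and replicate blocks and left out arrays.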

Additional observations from a re-analysis of the deposited data

How the results depend on the processing

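In all 20 alternatives no member passed an adjusted p of 0.05, and the lowest adjusted p of a named member was 0.319. With 3 arrays a group, an exact permutation test cannot go below 0.1. Members higher at an unadjusted p under 0.05 were 0, and became 1 under normexp, without the filter on dim probes, on slide 1 alone and with trended robust variances, 5 with the replicate block, 0 to 3 on leaving out one array, and 4 without wild-type 3 and null 1 (chosen after seeing the data). Members lower were 2, and became 3 under quantile normalization, median centring, normexp and the authors' value table, 1 without the filter and on slide 1 alone, 5 with the replicate block, and 0 to 3 on leaving out one array, with 0 without null 2. Cxcr4 probe 2 kept its sign in 20 of 20 alternatives and an unadjusted p under 0.05 in 15, and Cxcr6 in 20 and 10. The deviations of same-numbered arrays correlated at -0.02, -0.09 and 0.30. The labels do not say whether the replicate numbers pair the arrays, and 3 correlations cannot decide it. The median of members ranged from -0.20 to 0.05.

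Named probes changed sign in 41 of 433 comparisons, all of them in 9 probes, and the cause was not tested. Within slide 1, and with slide as a fixed block, Cxcl12 gave -0.095 (probe 1) and 0.34 (probe 2), Cxcl14 -0.12, Ccl2 0.064, Cx3cr1 -0.28 and -0.13, and Cxcl16 0.35 and 0.13. With median centring Cxcl14 was -0.044 and the second Cx3cr1 probe -0.028, and under normexp Ccl2 was 0.00086. Without wild-type 3 and null 1, Cxcl12 gave -0.015 and 0.57, Cxcl14 -0.090, Ccl2 0.81, and Cxcl16 0.82 and 0.52. On leaving out one array, the ranges were -0.38 to 0.47 for Ccl2, -0.29 to 0.017 for the second Ccl5 probe, -0.026 to 0.10 for the second Cx3cr1 probe, 0.0051 to 0.22 and -0.84 to 0.12 for Cxcl12, -0.071 to 0.072 for Cxcl14, and -0.81 to 0.38 and -0.84 to 0.12 for Cxcl16.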
